A study of Solanum lycopersicum with 6 samples.

Results

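The genes described here are 9 tomato light signalling genes, 4 phytochromes (PHYA, PHYB1, PHYB2 and PHYF), the transcription factors PIF1a and HY5, and the negative regulators COP1, DET1 and DDB1. They were chosen by locus for their place in the pathway, with no measured value in the rule but with earlier results of these data known, and all 9 were found among the 35768 gene models of the deposited table. RNA sequencing covered 3 libraries of slgols2 fruit and 3 of wild type (WT) fruit. All came from pericarp of the fruit shoulder, next to the stalk, taken at 30 DPA (the stage as labelled) from cultivar Ailsa Craig of Solanum lycopersicum. The slgols2 plants carry a knock-out made by CRISPR-Cas9. The labels give neither its allele nor the number of independent lines, nor do they say whether replicates came from separate plants, so the spread behind each p-value is that between libraries and could be technical. The values are FPKM, that is fragments scaled to gene length and to the depth of the library. Where a group has 3 values they follow the order of replicates 1, 2 and 3.

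Phytochromes are receptors for red and far-red light that move into the nucleus when activated by light. There they act against PIF proteins, transcription factors that hold back light responses, and against COP1, part of a ubiquitin ligase that marks HY5 for breakdown. HY5 is a transcription factor that turns on light responses, including genes for pigment and plastid development. DET1 and DDB1 belong to a second light-repressing ligase complex, and tomato plants with weak alleles of their genes, the high pigment mutants hp2 and hp1, bear fruit with more chloroplasts and deeper colour. In tomato fruit PIF1a is known as a repressor of the carotenoid gene PSY1.

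The deposited table lists identifiers without gene names, so the names are those of the list that defines the set. The symbols of 8 of the 9 were found in RefSeq's gene table for assembly SLM_r2.1, which holds none of the identifiers. In all 8 the chromosome of that symbol was the one in the identifier, and the place along the chromosome, as a percentage of its genes, differed by at most 2.7 points. The gene lengths behind the FPKM values, recovered from the steps between values, were within 20% of the RefSeq gene span for 7 of the 8. The exception was PHYB2 (Solyc05g053410.3, chromosome 5), at 5407 bases, a ratio of 0.563 to the span. The steps give the smallest length and fragment numbers that fit, so for PHYB2 a whole multiple of 5407 bases is also possible. PIF1a (Solyc09g063010.3, chromosome 9) had no symbol in that table, and its name rests on the list alone. Because the lengths are close to whole gene spans, introns included, levels of intron-rich genes are lower here than they would be per transcript length, and levels of different genes are compared on that scale only. How reads that match more than 1 phytochrome gene were counted is not given in the sources used here, and this leaves the separate levels of PHYB1 and PHYB2 uncertain.

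Depth, recovered from the same steps, lay between 16054248 and 17941974 fragments in the slgols2 libraries and between 15593387 and 17448121 in the WT libraries. The members rested on 54 to 2584 fragments per library. Replicate 3 of slgols2 stood apart from its group: across tested gene models, which are not independent replicates, its log2 values correlated at 0.849 and 0.869 with slgols2 replicates 1 and 2, which correlated with each other at 0.957, and at 0.878 to 0.903 with the WT libraries. Epidermis and seed marker lists, recalled by locus, bear on the tissue. Of 5 epidermis loci 4 were detected, with 1 at 0 in every library, and their summed FPKM was 82.0, 122.3 and 285.9 in slgols2, against 320.3, 397.9 and 311.7 in WT. Of 13 seed loci 9 were detected and 4 were at 0 in every library, and their summed FPKM was 1.79, 74.7 and 5.17 in slgols2 and 8.81, 11.99 and 43.0 in WT. Summed epidermis markers were thus lower in every slgols2 library than in any WT library, and lowest in slgols2 replicates 1 and 2, and seed markers were highest in slgols2 replicate 2 and WT replicate 3. No value of the edited gene is given, since that locus was not analysed here.

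By mean FPKM over both genotypes PHYA, COP1, PHYB1 and PHYB2 stood highest among the members and DET1 lowest. Mean levels over all 6 libraries were 13.8 FPKM for PHYA, 10.4 for COP1, 10.1 for PHYB1, 8.96 for PHYB2, 4.71 for DDB1, 3.52 for PIF1a, 2.54 for PHYF, 1.81 for HY5 and 0.863 for DET1. The step from PHYB2 down to DDB1 was the one that held in 6 of 6 libraries, with PHYB2 between 1.34 and 3.27 times DDB1. This step depends on the lengths used. The smallest length that fits was 0.563 of the RefSeq span for PHYB2 and 1.002 for DDB1, and whether PHYB2 was scaled to a multiple of it is not known. Every other pair of neighbours in this order changed places in at least 1 library. PHYB1 exceeded PHYB2 in 3 of 6 libraries, COP1 exceeded PHYB1 in 4, PIF1a exceeded PHYF in 4, and PHYA exceeded COP1 in 5. Taken by genotype, slgols2 means placed PHYB1 above COP1 and PIF1a above PHYF, and WT means placed COP1 above PHYB1 and PHYF above PIF1a.

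**Figure D1:**
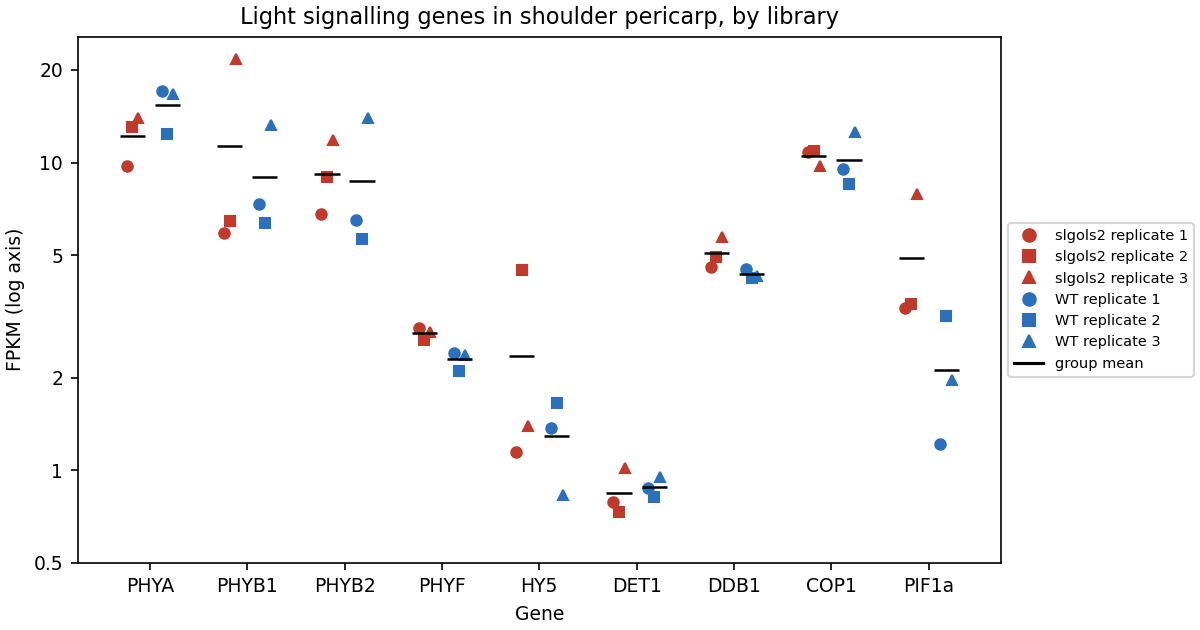
FPKM on a log axis of the 9 light signalling genes in each library, with slgols2 in red and WT in blue, a marker shape for each replicate number and a bar at each group mean. PHYF, DDB1 and PIF1a have all 3 slgols2 points above all 3 WT points, and single slgols2 libraries stand far from their group for PHYB1 (21.6 FPKM in replicate 3) and HY5 (4.48 FPKM in replicate 2).

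The comparison of slgols2 with WT fruit asks whether transcript levels of the light signalling pathway differ in the mutant fruit wall. No member passed the threshold. Of 15695 gene models with a mean FPKM of at least 1, which were fitted together with limma on log2(FPKM + 1), 36 (0.229%) passed an adjusted p of 0.05 (Benjamini-Hochberg), and 0 of the 8 members tested were among them. At an unadjusted p of 0.05 the number was 1 of the 8 members, PIF1a, against 12% of all gene models. Limma-voom on recovered reads also called 0 of the 8, but it called 1 of all 15695 gene models, so this adds little. DET1 fell below the FPKM limit, although its long gene held 245 to 345 fragments per library, and was fitted without that limit. The mean was higher in slgols2 for 7 of the 8 tested members and for 50.1% of all tested gene models, and the median difference was 0.16 over the 8 members and 0.0013 over all tested gene models on the log2 scale. The median size of the difference, whatever its sign, was 0.19 for the 8 members and 0.23 for all. In bulk tissue a lower or higher level cannot be split into a change in the number of cells of a type and a change in RNA per cell.

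**Figure D2:**
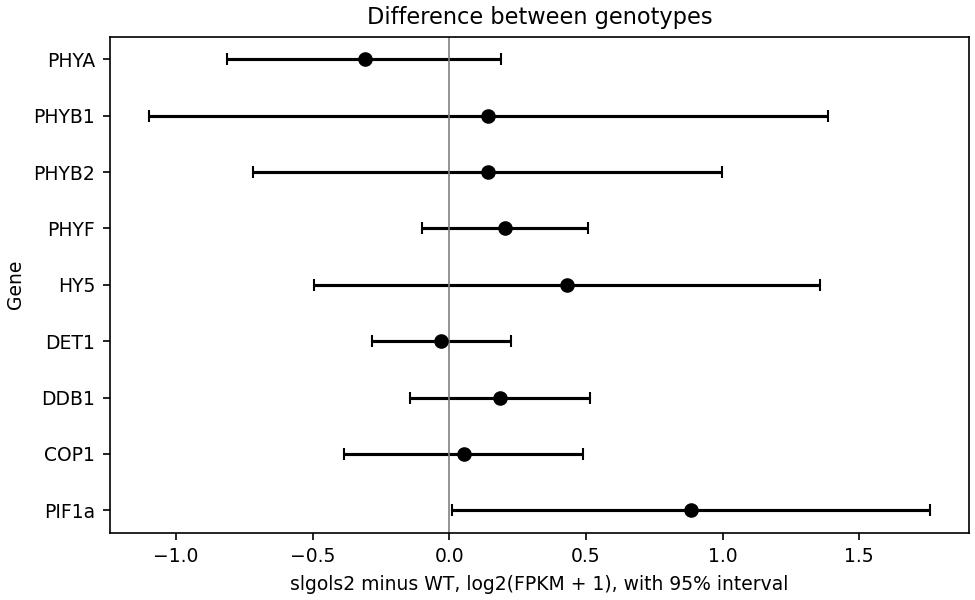
Difference in mean log2(FPKM + 1), slgols2 minus WT, for each gene, with its 95% interval from limma as a bar; DET1 comes from the fit without a limit on low values. The interval of PIF1a runs from 0.01 to 1.76, and the other 8 intervals include 0.

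In 3 of the 8 tested members the groups did not overlap, against 19.2% of all tested gene models, and in all 3 the slgols2 values were the higher ones, which held for 9.6% of all tested gene models. These 3 were PIF1a, PHYF and DDB1. With so few members these counts are a description. The summed epidermis markers also did not overlap, from 82.0 to 285.9 FPKM in slgols2 and from 311.7 to 397.9 FPKM in WT, and their part in these differences was not tested.

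PHYA (Solyc10g044670.2, chromosome 10), the phytochrome that senses far-red and very weak light, had the highest mean in both genotypes. Its level was 9.72, 13.02 and 13.9 FPKM in slgols2, against 17.0, 12.4 and 16.7 FPKM in WT. The groups overlapped through WT replicate 2, which lay below 2 of the slgols2 libraries. PHYA averaged 12.2 ± 2.21 FPKM in slgols2 and 15.4 ± 2.57 FPKM in WT (SD, n = 3 each), a ratio of 0.795. It was the 1 tested member with a lower mean in slgols2, with a log2(FPKM + 1) difference of -0.31 and a standard error of 0.21 (95% interval -0.81 to 0.19, limma adjusted p = 0.601). The difference was -0.17 without slgols2 replicate 1.

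PHYB1 (Solyc01g059870.4, chromosome 1) encodes a main receptor of red light in tomato. It stood at 5.90, 6.47 and 21.6 FPKM in slgols2, against 7.31, 6.34 and 13.2 FPKM in WT. Replicate 3 was the highest library in each genotype, and the other 4 libraries lay between 5.90 and 7.31 FPKM. The means were 11.3 ± 8.93 FPKM in slgols2 and 8.95 ± 3.71 FPKM in WT (SD, n = 3 each), with a log2 difference of 0.14 and a 95% interval from -1.10 to 1.39 (limma adjusted p = 0.939). The sign of this difference hung on single libraries: it was -0.41 without slgols2 replicate 3 and -0.045 without WT replicate 2.

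PHYB2, its closest relative among the members, stood at 6.82, 8.99 and 11.8 FPKM in slgols2, against 6.51, 5.66 and 14.0 FPKM in WT. Replicate 3 was again the highest library of each genotype, this time with the highest value in WT, and the groups overlapped widely. The log2 difference was 0.14 with a 95% interval from -0.72 to 1.00 (limma adjusted p = 0.904), and it was -0.04 without slgols2 replicate 3 and -0.08 without WT replicate 2.

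PHYF (Solyc07g045480.3, chromosome 7), a less studied tomato phytochrome, differed little between replicates. Its level was 2.90, 2.66 and 2.81 FPKM in slgols2, and 2.41, 2.09 and 2.37 FPKM in WT. Every slgols2 value was above every WT value. PHYF averaged 2.79 ± 0.121 FPKM in slgols2 and 2.29 ± 0.171 FPKM in WT (SD, n = 3 each), a ratio of 1.22. On the log2 scale the difference was 0.20 with a standard error of 0.13 (95% interval -0.10 to 0.51), which did not pass (limma adjusted p = 0.573). The exact permutation test, two-sided, gave p = 0.1, and 3 libraries a group allow none smaller. Its standard deviation between replicates was larger than that of 2.4% of the 500 gene models nearest in FPKM, which were not matched for fragments. The coefficients of variation, 4.34% in slgols2 and 7.46% in WT, compare with 4.35% and 4.81% from counting fragments alone.

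The make-up of the transcripts of the 4 phytochrome members varied between libraries of the same genotype. Loci recalled as further photoreceptors are left out here, so these 4 need not be all the phytochromes. The summed level of the 4 genes was 25.3, 31.1 and 50.2 FPKM in slgols2, against 33.3, 26.5 and 46.2 FPKM in WT, so that replicate 3 was the highest in both. PHYA made up 38.4%, 41.8% and 27.7% of that sum in slgols2 and 51.2%, 46.8% and 36.1% in WT, or 36.0% ± 7.34 in slgols2 and 44.7% ± 7.80 in WT (SD, n = 3 each), and the groups overlapped. PHYB1 made up 23.3%, 20.8% and 43.1% in slgols2 and 22.0%, 23.9% and 28.6% in WT. Replicate 3 of slgols2 was the single library in which PHYB1 exceeded PHYA. These shares depend on the gene lengths the authors used.

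**Figure D3:**
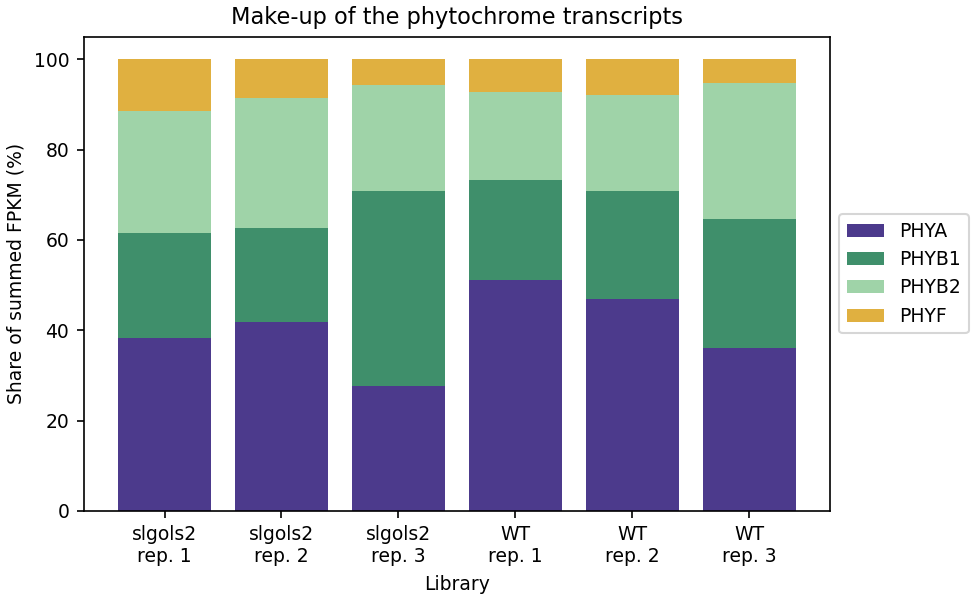
Share of the summed FPKM of the 4 phytochrome members held by each, in percent, for every library, with slgols2 on the left. PHYA holds from 27.7% (slgols2 replicate 3) to 51.2% (WT replicate 1), and PHYB1 reaches 43.1% in slgols2 replicate 3.

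PIF1a showed the largest difference of the 9. It stood at 3.36, 3.46 and 7.91 FPKM in slgols2, against 1.22, 3.18 and 1.97 FPKM in WT, or 153, 141 and 328 fragments against 54, 139 and 78. The slgols2 libraries were all higher, but slgols2 replicates 1 and 2 were close to WT replicate 2. PIF1a averaged 4.91 ± 2.60 FPKM in slgols2 and 2.12 ± 0.988 FPKM in WT (SD, n = 3 each), a ratio of 2.31. The log2(FPKM + 1) difference was 0.88 with a standard error of 0.36 and a 95% interval from 0.01 to 1.76, and it did not pass over all gene models (limma adjusted p = 0.415). Its highest value came from slgols2 replicate 3, which stood apart. Without that library the difference was 0.55, and the unadjusted p was 0.105, against 0.048 over all libraries (limma). The adjusted p was 0.299 (limma), in a fit where 279 gene models passed instead of 36.

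Among the negative regulators, COP1 (Solyc12g005950.2, chromosome 12) stood at 10.8, 10.9 and 9.75 FPKM in slgols2 and at 9.50, 8.51 and 12.6 FPKM in WT. The WT values enclosed the slgols2 values. The log2 difference was 0.05 with a 95% interval from -0.38 to 0.49 (limma adjusted p = 0.934), and it was -0.06 without WT replicate 2.

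DDB1 (Solyc02g021650.3, chromosome 2), the gene affected in hp1 and the adaptor that links substrate receptors to a cullin ligase, stood at 4.58, 4.92 and 5.73 FPKM in slgols2, against 4.51, 4.21 and 4.27 FPKM in WT. The groups did not overlap, though slgols2 replicate 1 and WT replicate 1 were nearly level. DDB1 averaged 5.08 ± 0.594 FPKM in slgols2 and 4.33 ± 0.157 FPKM in WT (SD, n = 3 each), a ratio of 1.17. The log2 difference was 0.18 with a standard error of 0.14 and a 95% interval from -0.14 to 0.51 (limma adjusted p = 0.632; two-sided exact permutation p = 0.1). Without slgols2 replicate 3 it was 0.11.

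DET1 (Solyc01g056340.3, chromosome 1), the gene affected in hp2 and a partner of DDB1, stood at 0.788, 0.734 and 1.02 FPKM in slgols2 and at 0.876, 0.817 and 0.949 FPKM in WT. The slgols2 values enclosed the WT values. Without a limit on low values its log2(FPKM + 1) difference was -0.03 with a 95% interval from -0.28 to 0.22 (limma adjusted p = 0.934 over 25084 gene models, of which 0.219% passed). Its sign hung on a single library, at 0.014 without slgols2 replicate 2, and the difference was -0.095 without slgols2 replicate 3. On recovered reads, without the 1 added to FPKM, limma-voom gave a ratio of 0.953 with a 95% interval from 0.68 to 1.34.

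HY5 (Solyc08g061130.3, chromosome 8) was low in every library but 1. It stood at 1.15, 4.48 and 1.39 FPKM in slgols2, against 1.37, 1.66 and 0.831 FPKM in WT, which were 86, 300 and 95 fragments against 100, 119 and 54. Replicate 2 of slgols2 was far above the rest, and the other slgols2 libraries lay within the WT range. HY5 averaged 2.34 ± 1.86 FPKM in slgols2 and 1.29 ± 0.42 FPKM in WT (SD, n = 3 each), with a log2 difference of 0.43 and a 95% interval from -0.50 to 1.36 (limma adjusted p = 0.696). Without slgols2 replicate 2 the difference was 0.006, without slgols2 replicate 1 it was 0.68 and without WT replicate 3 it was 0.28. Replicate 2 of slgols2 also had the highest summed seed markers, 74.7 FPKM. WT replicate 3, with the second highest sum at 43.0 FPKM, had the lowest HY5, and the part of seed RNA in the HY5 value was not tested.

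The members differed in their spread between replicates. The spread of PHYF, DDB1 and DET1 between replicates was larger than that of 2.4%, 5.4% and 7.2% of the 500 gene models nearest to each in level. Those gene models were matched for FPKM and not for fragments. The recovered lengths of these 3 genes were 11275, 20583 and 20803 bases, against a median of 4154 over tested gene models. HY5 had 4170 bases and PIF1a 2539. The part of counting error in these ranks was not tested. COP1 and PHYA lay in the middle, at 29.6% and 40.4%. For PHYB1, HY5, PHYB2 and PIF1a the figure was 90.6%, 85.8%, 81.6% and 80.6%. The lowest and highest libraries differed 6.49-fold for PIF1a and 5.40-fold for HY5, but 1.36-fold for DDB1, 1.383-fold for PHYF and 1.384-fold for DET1.

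The 5 ratios between members were compared within libraries, where the scaling of a library cancels. DET1 to DDB1 was 0.172, 0.149 and 0.177 in slgols2, against 0.194, 0.194 and 0.222 in WT, and was the 1 ratio of the 5 whose groups did not overlap. Its log2 difference was -0.29, with an exact two-sided permutation p of 0.1, the smallest the design allows, and 0.5 after adjustment over the 5 ratios. This ratio is not separate from the DDB1 result. The groups of DDB1 on its own did not overlap (log2 difference 0.18), and those of DET1 did (-0.03). HY5 to COP1 was 0.106, 0.410 and 0.143 in slgols2 and 0.145, 0.195 and 0.0661 in WT. PIF1a to HY5 ran from 0.772 to 5.67 in slgols2 and from 0.887 to 2.37 in WT. For both ratios slgols2 replicate 2 lay at one end, and the groups overlapped (exact permutation p = 0.6, adjusted p = 0.75 each). Without slgols2 replicate 2 the log2 difference of HY5 to COP1 was 0.004, and without WT replicate 3 it was 0.13, against 0.58 over all libraries. PHYA to the sum of the other 3 phytochrome members was 0.622, 0.719 and 0.384 in slgols2, against 1.05, 0.881 and 0.564 in WT, a log2 difference of -0.53 (exact permutation p = 0.3, adjusted p = 0.75). It was -0.27 without slgols2 replicate 3 and -0.34 without WT replicate 1. PHYB1 to PHYB2 differed by -0.02 (exact permutation p = 1, adjusted p = 1).

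**Figure D4:**
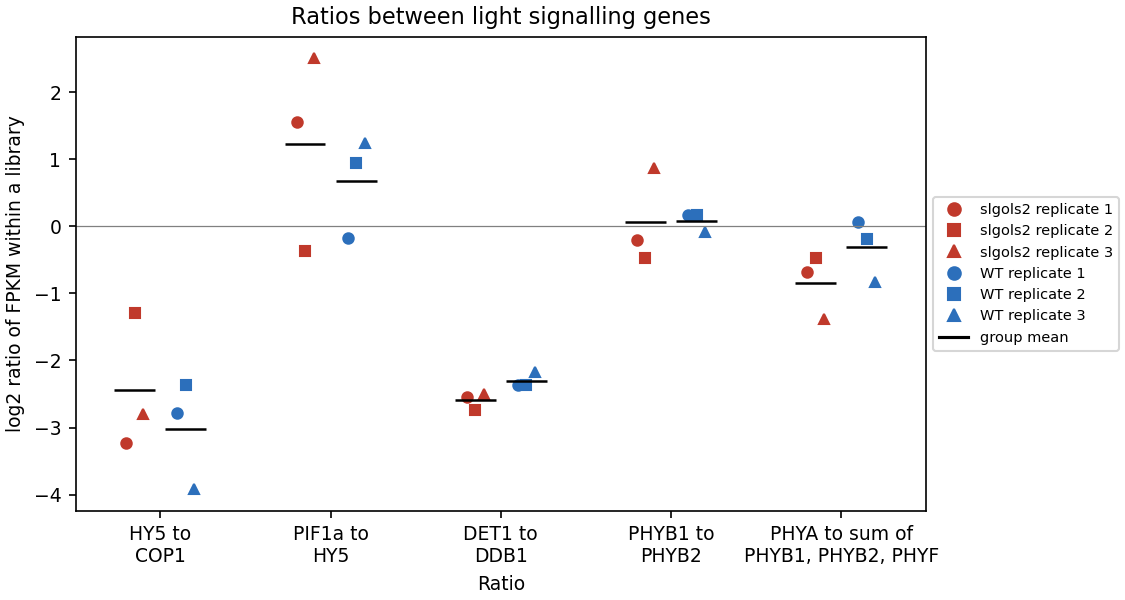
Log2 ratio of FPKM within each library for the 5 pairs, with slgols2 in red to the left of WT in blue and a bar at each group mean. DET1 to DDB1 is lower in all 3 slgols2 libraries, at most 0.177 against at least 0.194 in WT, and the other 4 ratios overlap.

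By the mean absolute difference of centred log2(FPKM + 1) over the 6 libraries, PHYF and DDB1 were each other's nearest member, at 0.07. PHYB2 was nearest to PHYB1 at 0.30, whereas COP1 was nearest to PHYB2 at 0.29. HY5 and PIF1a, both nearest to DDB1, were further away, at 0.38 and 0.40. The measure is not scaled to the spread of each gene. A member that varied little, as DDB1 did, can therefore be nearest without a shared pattern. HY5 was highest in slgols2 replicate 2 and DDB1 in slgols2 replicate 3. Over all tested gene models the nearest to HY5 were Solyc09g090770.2 and Solyc11g006270.2, at 0.15 each, and both were highest in slgols2 replicate 2, at 10.9 and 8.09 FPKM. The nearest to PIF1a, the member with the widest range, were Solyc12g014630.1 at 0.13 and Solyc04g080040.3 at 0.14, and both were highest in slgols2 replicate 3, at 4.03 and 4.86 FPKM. These 4 gene models were picked for closeness over the same libraries, so the shared highest library follows from the choice. The sources used here pair none of these 4 identifiers with a name.

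Further genes of the pathway were taken from a list of 26 loci, which does not cover all of it. These loci were recalled as further photoreceptors, PIF family, COP1-like and BBX family genes, the last zinc finger proteins that work with HY5 and COP1. Of these, 1 was not analysed here because its identifier was not found, 3 of the 7 PIF family loci were listed at 0 in every library, 3 were below a mean of 1 FPKM, and 19 were tested. None of the 19 passed with limma, beside 0.229% of all tested gene models, and the lowest limma adjusted p was 0.368. At an unadjusted p of 0.05 the number was 2 of the 19, beside 12% of all tested gene models. Limma-voom also called 0 of the 19, and 1 of all tested gene models. The mean was higher in slgols2 for 12 and lower for 7, where 50.1% of all tested gene models were higher, with a median log2 difference of 0.28, beside 0.0013 for all tested gene models. By family, 7 of 10 BBX loci, 2 of 4 PIF loci and 3 of 5 photoreceptor loci were higher in mean. The groups did not overlap for 2 of the 19, against 19.2% of all tested gene models, 1 higher and 1 lower in slgols2. The higher was recalled as a BBX locus, and the lower as a photoreceptor (log2 difference -0.36, limma adjusted p = 0.440).

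The largest positive difference in that list was at Solyc07g043580.3, recalled as a PIF family locus, with 19.1, 11.0 and 6.64 FPKM in slgols2, against 6.07, 4.37 and 6.90 FPKM in WT (log2 difference 0.87, limma adjusted p = 0.422). Next was Solyc02g089540.3, recalled as a BBX locus, with 2.07, 1.75 and 3.88 FPKM in slgols2, against 1.26, 1.29 and 0.851 FPKM in WT (log2 difference 0.70, limma adjusted p = 0.368). The groups overlapped at the PIF family locus and not at the BBX locus. The largest negative differences were at 2 more loci recalled as BBX genes. Solyc02g089520.2 had 2.93, 3.29 and 3.21 FPKM in slgols2, against 6.29, 7.31 and 3.14 FPKM in WT (log2 difference -0.61, limma adjusted p = 0.447). Solyc12g089240.2 had 5.05, 5.07 and 4.85 FPKM in slgols2, against 7.45, 3.58 and 14.1 FPKM in WT (log2 difference -0.48, limma adjusted p = 0.684). The chromosome 2 pair lie close together by identifier, and copies of like sequence can share reads, so their separate levels are uncertain.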

How the data were processed

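FPKM values were deposited by the authors as 1 table with a column for each of the 6 libraries, per the file headers. The submitters' processing notes name HISAT2 2.1.0 and DESeq 1.38.3. No source used here gives the counting tool, build, annotation or strand setting, so overlapping or antisense genes may share reads. Libraries were grouped by title.

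The members and lists were chosen with earlier results of these data known, and the wider list and the marker lists rest on recalled loci. Genes named are the 9 members, the 2 largest positive and 2 largest negative differences of the wider list, and the gene models nearest in pattern to HY5 and to the member with the widest range.

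Depth, gene length and fragment numbers were recovered from the steps of low values. Lengths and fragment numbers are the smallest that fit, and whole multiples of them stay possible. Of 3638 low genes, 98.7% gave a whole length within 0.01 bases, and all 15695 tested gene models gave whole fragments within 0.02. Recovered fragments made up 99.7% to 99.8% of the depth. The coefficients of variation from counting fragments, given for PHYF, cover counting error only. There were 3 libraries a group, which limits precision.

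Gene models with a mean FPKM of at least 1 were fitted with limma 3.58.1 in R 4.3.3 on log2(FPKM + 1), on genotype alone, with an intensity trend, two-sided, with Benjamini-Hochberg adjustment. This scale understates changes of low genes. Ratios were tested with exact permutation (scipy 1.17.1). Alternatives covered the pseudocount (0.1), the filter, median-ratio scaling, sample weights, a replicate block, each library left out and limma-voom on recovered reads. A filter at a mean of 10 reads, alone and with limma-voom, was added after seeing the data. Comparing levels per coding length was not run for want of sequences.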

Additional observations from a re-analysis of the deposited data

How the results depend on the processing

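No tested member passed under any of the alternatives run (limma, lowest adjusted p 0.0986, for HY5 with sample weights). The weights were 0.809, 4.83 and 0.173 in slgols2 and 1.36, 1.47 and 0.74 in WT. That setting thus leans on slgols2 replicate 2, the library with the highest HY5. PHYA, PHYF, DDB1, HY5 and PIF1a kept the sign of their difference in all 14 alternatives each. PIF1a ran from 0.55 to 1.19 and HY5 from 0.006 to 0.99 on the log2 scale. The 1.19 came from limma-voom on reads, without the 1 added to FPKM. On log2(FPKM + 1) with 1 library left out, PIF1a ran from 0.55 to 1.12. PHYB1 turned to -0.21 with sample weights, -0.41 without slgols2 replicate 3 and -0.045 without WT replicate 2. PHYB2 turned to -0.038 and -0.084 without these same libraries, and COP1 to -0.056 without WT replicate 2. Over the fits that leave out 1 library, PHYB1 ran from -0.41 to 0.45, PHYB2 from -0.084 to 0.50 and COP1 from -0.056 to 0.20. DET1, at -0.03, ran from -0.095 to 0.014, which is within its spread between replicates. The ratio of PIF1a to HY5 turned to -0.084 without slgols2 replicate 3, and ran to 1.35 without slgols2 replicate 2. PHYB1 to PHYB2, at -0.02, turned to 0.003 with a pseudocount of 1 and ran from -0.426 to 0.249 with 1 library left out. The cause was not tested.

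The count of 36 gene models became 20 at the pseudocount of 0.1, 55 without a filter, 2028 (12.9%) with sample weights and 1 with limma-voom on recovered reads (2 with the read filter). It ran from 7 to 279 with 1 library left out. In the wider list 3 loci passed with sample weights and 0 otherwise. With the replicate number as a block the count was 1, and no member's call changed. Nothing shows that equal numbers pair libraries, since deviations of same-numbered libraries correlated at -0.15, 0.089 and -0.165. At this depth HY5 and PIF1a rest on the fewest fragments, 54 at the lowest.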
